A study of Mus musculus with 6 samples.

Results

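The genes described here encode the machinery that shortens the poly(A) tail of a messenger RNA, removes its cap and degrades it, together with the proteins that bind poly(A). They were taken by symbol from the genes named on the array: the Cnot genes, Dcp1a, Dcp1b, Dcp2, Edc3, Edc4, Xrn1, Xrn2, the Exosc genes, Pan2, Pan3, the Lsm genes, the Pabpc genes, Pabpn1, Upf1, Upf2 and the Smg genes. The rule gave 56 of 18193 genes. No measured value entered it, although the genes were chosen with earlier results of these data known. Of these 56 genes, 41 lay in the brighter part of the array that was tested. Cnot1 and Lsm5 were left out, since the array named them only together with another gene.

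Decay of most messenger RNAs begins at the poly(A) tail. The PAN2-PAN3 enzyme and the CCR4-NOT complex shorten the tail, which poly(A)-binding proteins coat. The ring of LSM proteins that contains LSM1 then binds the shortened end, DCP2 removes the cap with the help of DCP1 and the EDC proteins, and XRN1 degrades the body from the cap end, while the exosome degrades it from the tail end. Messages with a premature stop codon enter decay through the UPF and SMG proteins. Elavl4 encodes HuD, a member of the ELAV family that is made in neurons. HuD binds U-rich and AU-rich stretches in messenger RNAs and is known for stabilising many of its targets against this machinery. The measurements here concern the messages that encode the decay machinery, not its activity.

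RNA from mouse hippocampus was hybridised to 6 Affymetrix expression arrays, which read each gene with probe sets, sometimes several. In 3 HuD pulldowns the RNA came from protein-G beads with anti-myc antibody directed at transgenic HuD, and in 2 IgG pulldowns from protein-G beads with non-immune IgG. The last array held total input RNA. Signals are listed in array order, HuD 1 to HuD 3 and then IgG 1 and IgG 2. The promoter of the transgene, the genotype behind the IgG and input samples, and the strain, sex and age of the mice are not given in the labels. Nothing in the labels says that arrays of a group came from separate animals. The p-values therefore rest on the spread among these arrays alone, and that spread may be technical.

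Each array had been scaled to a common level, so a higher or lower value means a larger or smaller share of that array's signal, not a larger or smaller recovered amount. In the input all 5 neuronal markers examined were above the array median, while 0 of 4 markers of liver, heart, pancreas and skin were. Of 4 hippocampal neuron markers 3 were above it, with Prox1 below at 9.80. All 4 astrocyte, 4 microglial, 3 oligodendrocyte and 2 choroid plexus markers found were above it. Of 3 endothelial markers 1 was above it, and the 1 blood marker found was not. Elavl4 itself had signals of 2294, 2010 and 1689 in the HuD pulldowns, 766 and 642 with IgG and 597 in the input (log2 difference between the pulldowns 1.46 ± 0.25, adjusted p = 0.00111), and the labels do not say whether the probe set also detects the transgene. Summed neuronal marker signals were 22904 to 28253 in the HuD pulldowns and 18927 to 19991 in the IgG pulldowns. For 4 markers of hippocampal neurons the sums were 1418 to 1719 with HuD against 1756 to 1879 with IgG, and for 2 choroid plexus markers 11923 to 15087 against 16065 to 18481. Sums were lower with HuD for 4 astrocyte markers, at 2493 to 4362 against 6025 to 6161, and for 4 microglial markers, at 1116 to 1587 against 2366 to 3621. For 3 endothelial markers the sums were 60.7 to 77.3 against 165 to 247, and for 3 oligodendrocyte markers 9106 to 13209 against 13363 to 20529. The part of cell composition in the differences below was not tested. Fewer cells of a type, less RNA per cell and less capture of its RNA by the pulldown cannot be told apart.

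The first comparison asked which of these messages made up a larger or smaller share of the RNA with HuD than on the IgG beads. Of the 41 genes tested, 9 rose, 10 fell and 22 did not pass. Here rose and fell mean a higher or lower value in the HuD pulldowns, with an adjusted p under 0.05 in limma over all 9097 genes tested. Among all genes tested 21.5% rose and 34% fell, so the share of decay genes that rose was close to the background and the share that fell was below it. The median log2 difference was 0.08 over the 41 genes and −0.28 over all genes tested. In 17 of the 41 genes every HuD signal was above every IgG signal, and in 12 every HuD signal was below, against 27.6% and 43.1% of all genes tested. The rises were in 4 CCR4-NOT genes, Pan3, 3 Lsm genes and Pabpc4. The falls were in 3 CCR4-NOT genes, 3 exosome genes, the decapping genes Edc3 and Edc4, Lsm4 and Smg5.

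The test took genes by their mean over all 6 arrays, and 35 of the 41 were also above the level for testing in every group. The other 6 were below it in at least 1 group, and of these 1 rose and 2 fell. Dcp1a, Lsm12 and Upf1 were above it only with HuD, while Cnot3, Exosc1 and Smg8 were below it only with HuD. These 6 genes thus entered the test through the groups where they were brighter. Array titles end in either of a pair of suffixes of unstated meaning, one shared by HuD 1, IgG 1 and the input and the other by HuD 2, HuD 3 and IgG 2. The difference between HuD and IgG had the same sign within both suffixes in 34 of the 41 genes, against 83.8% of all genes tested.

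**Figure D1:**
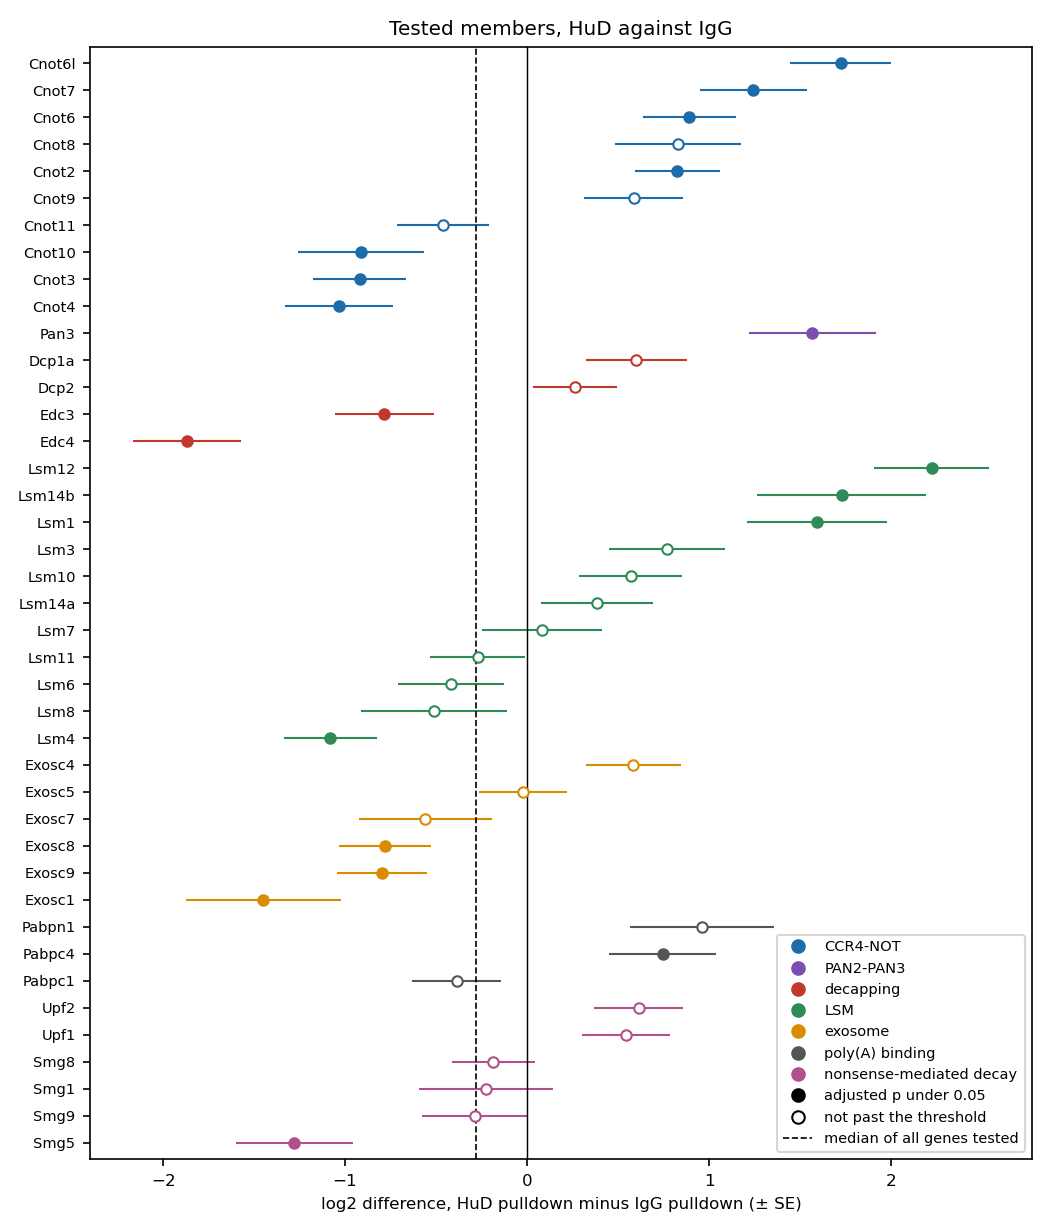
Log2 difference between the HuD and IgG pulldowns for each of the 41 tested genes, ordered by role, with bars of 1 standard error. Colours mark the role, filled points the 9 genes that rose and the 10 that fell, open points the 22 that did not pass, and the dashed line the median of all genes tested (−0.28). The filled points of the decapping and exosome genes all lie to the left of 0, and those of the CCR4-NOT genes lie on both sides. Over all genes tested 21.5% rose and 34% fell.

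The split between rises and falls moved with how arrays were set against each other. With each array centred on its median, 17 rose and 6 fell, against 24.4% and 26% of all genes. Centring on the 75th percentile gave 18 and 4, against 27.9% and 18.7%, and quantile normalization gave 15 and 5, against 23.4% and 25%. The median of all genes moved from −0.28 to −0.13, 0.03 and −0.12 under these scalings. Leaving out 1 array at a time gave 7 to 12 rises and 5 to 10 falls, with 5 falls without HuD 1 (21.8% of all genes) and 6 without HuD 3 (26.7% of all genes). For 6 of the 19 genes calls held in each setting that tested the gene, which was 18 settings for Cnot6l, Pan3 and Lsm4, 17 for Edc4 and Smg5 and 16 for Lsm12.

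The CCR4-NOT complex is the main cytoplasmic deadenylase of animal cells. The 10 of its genes with a probe set of their own were all tested, of which 4 rose and 3 fell, with a median log2 difference of 0.71. Cnot1 was not among them, since its probe sets also carried the symbol of another gene. The background was 21.5% and 34% of all genes tested, with a median of −0.28. The rises were in Cnot6, Cnot6l and Cnot7, which encode nuclease subunits, and in Cnot2, which encodes a scaffold partner. The falls were in Cnot3, whose protein pairs with CNOT2, in Cnot10 and in the ubiquitin ligase gene Cnot4.

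Cnot6l encodes a deadenylase of the complex and had the largest rise among its genes. Its signals were 1872, 1327 and 1296 with HuD, 501 and 360.3 with IgG and 529.9 in the input. Every HuD signal was well above any other, and the difference was 3.30-fold (log2 1.72 ± 0.28, adjusted p = 0.000768). All 4 probe sets of Cnot6l rose, by 1.72, 1.17, 1.5 and 1.71 on the log2 scale. The close relative Cnot6 had signals of 1909, 1534 and 1985 with HuD, 824 and 1105 with IgG and 854 in the input. The groups were apart and the IgG and input signals lay near each other (log2 0.89 ± 0.26, adjusted p = 0.0129). This rise did not pass with its probe sets averaged (0.48), nor without HuD 1 (0.85), HuD 3 (0.82) or IgG 1 (0.69).

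Cnot7 and Cnot8 encode alternative nucleases of another type in the same complex. Signals of Cnot7 were 3962, 4158 and 4127 with HuD, 1187 and 2448 with IgG and 1829.6 in the input. The HuD arrays agreed closely while the IgG arrays lay on either side of the input (log2 1.24 ± 0.29, adjusted p = 0.00496). Without IgG 1 the difference of Cnot7 was 0.73 and still passed. Other tested probe sets of Cnot7 had differences of −0.22 and 0.28, and the average of its probe sets did not pass (0.44). For Cnot8 the signals were 359, 825 and 378 with HuD, 271 and 246 with IgG and 504 in the input. Although the groups did not overlap, HuD 2 stood well above the others and the difference did not pass (log2 0.83 ± 0.34, adjusted p = 0.0586). It passed as a rise in 4 other settings, namely the other scalings (0.95 to 1.15) and without HuD 3 (1.00).

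Cnot2 encodes a subunit that, with CNOT3, joins the complex to regulators. Its signals of 3178, 3198 and 3701 with HuD, 1661 and 2119 with IgG and 1682 in the input left a clear gap between groups (log2 0.83 ± 0.24, adjusted p = 0.0123). It did not pass with probe sets averaged (0.50) or without HuD 3 (0.75). Cnot3 went the other way, with signals of 47.0, 54.5 and 25.7 with HuD, 108 and 106 with IgG and 137 in the input. All of these are dim signals, and the HuD signals were the lowest (log2 −0.92 ± 0.25, adjusted p = 0.0108). The fall of Cnot3 did not pass under 75th percentile centring (−0.60), under quantile normalization (−0.66) or without HuD 3 (−0.75).

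Cnot4 encodes a ubiquitin ligase associated with the complex. Its signals were 168, 269.6 and 264 with HuD, 624 and 403 with IgG and 172 in the input. Here the HuD signals were near or above the input and the IgG signals were higher than both (log2 −1.03 ± 0.30, adjusted p = 0.0131). Against the input Cnot4 differed by 0.36 with HuD and by 1.39 with IgG. Its other tested probe sets had differences of 0.62, −0.01, 0.06 and −0.36. The fall of Cnot4 was lost with probe sets averaged (−0.14), under 75th percentile centring (−0.72), and without HuD 1 (−0.84) or IgG 1 (−0.74).

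Cnot10, a subunit of the arm that binds the scaffold's other end, was added to the genes described after its values were seen. Signals of Cnot10 were 59.0, 167 and 95.3 with HuD, 280.3 and 166 with IgG and 166 in the input, so that HuD 2 lay between the IgG arrays (log2 −0.91 ± 0.35, adjusted p = 0.0417). Its call was lost in 9 settings, among them each of the other scalings, and without HuD 1 (−0.64), HuD 3 (−0.89) or IgG 1 (−0.59). Cnot9 and Cnot11 did not pass, with differences of 0.59 and −0.46.

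**Figure D2:**
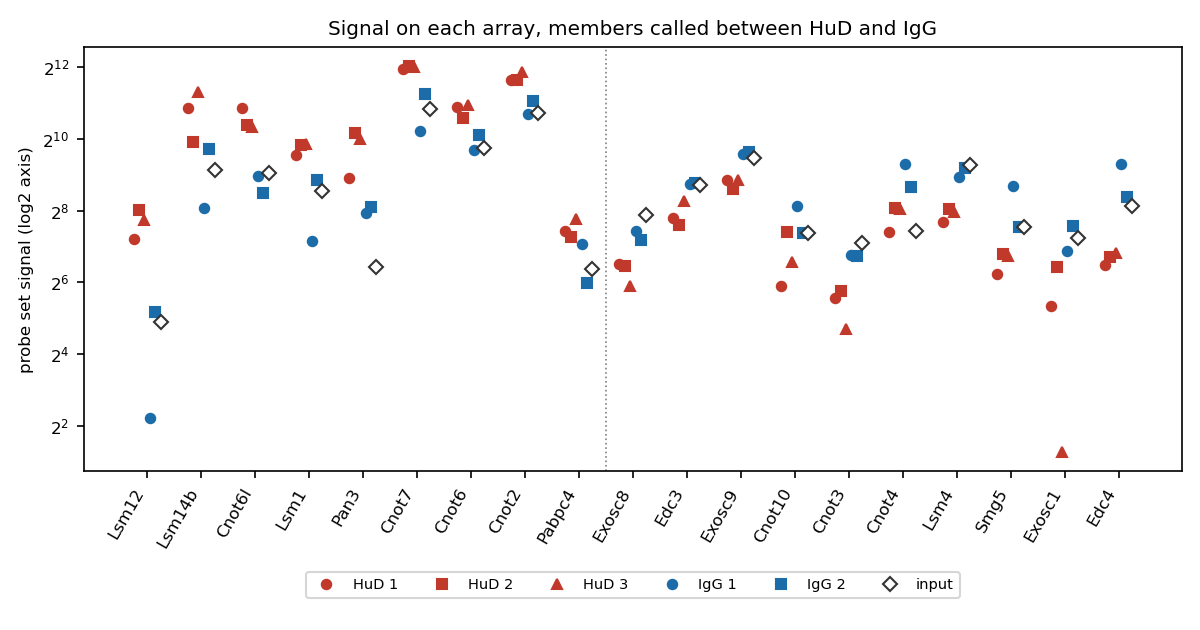
Probe set signal of the 19 genes that rose (left of the dotted line) or fell (right) on each array, on a log2 axis. Red marks HuD pulldowns, blue IgG pulldowns and open diamonds the input. For Lsm12 the brighter IgG array is at 36.3 and the dimmest HuD array at 146, while for Cnot10 HuD 2 lies between the IgG arrays.

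PAN2 and PAN3 form the other deadenylase, in which PAN2 is the nuclease and PAN3 binds poly(A) and its binding protein. Signals of Pan3 were 478, 1148 and 1012 with HuD, 243 and 272 with IgG and 86.1 in the input. The order was HuD above IgG above input without overlap, with HuD 1 well below the other HuD arrays (log2 1.57 ± 0.35, adjusted p = 0.00373). Against the input Pan3 was 7.25-fold higher with HuD (log2 2.86 ± 0.44, adjusted p = 0.00212). A further probe set of Pan3 also rose (1.07), and with all its probe sets averaged the difference against IgG was 0.55 and still passed. Pan2 was too dim to be tested, with signals of 13.9, 23.2 and 4.66 with HuD, 43.5 and 41.2 with IgG and 35.9 in the input.

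Among the genes of decapping 4 of 5 were tested, of which none rose and 2 fell, with a median log2 difference of −0.26. For all genes tested the shares were 21.5% and 34% and the median −0.28. Both falls were in enhancers of decapping and not in the enzyme. Edc4, the large scaffold that brings DCP1 and DCP2 together, had the largest fall of the 41 tested genes, each taken by its brightest probe set. Its signals were 89.3, 105 and 112 with HuD, 626 and 331 with IgG and 279 in the input. Every HuD signal was below the input and every IgG signal above it (log2 −1.87 ± 0.30, adjusted p = 0.000732), a 3.65-fold difference. Edc3, another scaffold of decapping factors, had signals of 222, 192 and 309 with HuD, 424 and 437 with IgG and 422 in the input. IgG and input were close together and all HuD signals lower (log2 −0.78 ± 0.27, adjusted p = 0.0292). The call for Edc3 was lost in 9 settings, including the removal of HuD 1, HuD 2, IgG 1 or IgG 2 (−0.65 to −0.80).

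Dcp2, which encodes the decapping enzyme, had signals of 2496, 2675 and 2893 with HuD, 2439.7 and 2038 with IgG and 1629 in the input. These values did not separate HuD from IgG beyond their error (log2 0.26 ± 0.23, adjusted p = 0.348). Signals of Dcp1a, its activator, were 65.9, 133 and 122 with HuD, 55.4 and 59.4 with IgG and 60.4 in the input, and the difference did not pass (log2 0.60 ± 0.28, adjusted p = 0.0834). Dcp1a passed as a rise in 4 other settings, namely the other scalings (0.75 to 0.93) and without HuD 1 (0.84). Its level with IgG and in the input was below that for testing, so Dcp1a entered the test through its brightness with HuD. Dcp1b was below the level for testing, at 31.2, 47.3 and 52.5 with HuD, 86.9 and 58.3 with IgG and 48.5 in the input.

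The LSM proteins form rings on RNA ends. LSM1 defines the cytoplasmic ring of decay and LSM8 the nuclear ring on U6 RNA, LSM10 and LSM11 belong to the U7 particle of histone message processing, and LSM14A and LSM14B are RNA-binding proteins found in P-bodies. Of 12 LSM genes, Lsm5 not being included, 11 were tested, of which 3 rose and 1 fell, with a median log2 difference of 0.38. The shares over all genes tested were 21.5% and 34%, with a median of −0.28. The rises were in Lsm12, Lsm14b and Lsm1, and the fall was in Lsm4, a subunit of both rings.

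Lsm12, whose protein carries an LSM domain, had the largest rise of the 41 tested genes, each taken by its brightest probe set. Its signals were 146, 257 and 215 with HuD, 4.60 and 36.3 with IgG and 29.6 in the input. IgG 1 was close to no signal, and every HuD signal was far above any other (log2 2.22 ± 0.32, adjusted p = 0.000440). On so dim a gene the size depends on the constant added before the logarithm, with 3.14 for a smaller constant and 1.16 for a larger one, both past the threshold. Its level in the IgG pulldowns and the input was below that for testing, so the gene entered the test through its brightness with HuD. Another probe set of Lsm12 rose by 0.95.

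Signals of Lsm14b were 1867, 971 and 2545 with HuD, 269 and 843 with IgG and 559 in the input. Both groups were spread, and HuD 2 lay just above IgG 2 (log2 1.73 ± 0.46, adjusted p = 0.00916). Without IgG 1 the difference of Lsm14b was 0.96 and did not pass. Its relative Lsm14a had signals of 2102, 1188 and 2200.1 with HuD, 1156 and 1566 with IgG and 1687 in the input, with overlapping groups (log2 0.38 ± 0.31, adjusted p = 0.302), and passed in 1 other setting, the block on title numbers (0.66). For Lsm1 the signals were 744, 914 and 925 with HuD, 142 and 465 with IgG and 376 in the input. The HuD arrays agreed and IgG 1 was well below IgG 2 (log2 1.59 ± 0.38, adjusted p = 0.00533). Leaving out IgG 1 brought the difference of Lsm1 to 0.84, still past the threshold, and averaging its probe sets to 0.59, which did not pass.

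Lsm4 fell, with signals of 204, 262 and 248 with HuD, 489.8 and 586 with IgG and 612 in the input. HuD signals were below every IgG signal and the input (log2 −1.08 ± 0.26, adjusted p = 0.00499). Lsm8 did not pass on its brightest probe set, with signals of 475, 393 and 410.1 with HuD, 335 and 1125 with IgG and 796 in the input (log2 −0.51 ± 0.40, adjusted p = 0.294). IgG 1 lay below and IgG 2 above all HuD signals, and without IgG 1 the difference of Lsm8 was −1.34 and passed. Another probe set of Lsm8 rose by 2.23, and for that reason the gene was added after its values were seen. Differences of the other LSM genes that did not pass, Lsm3, Lsm6, Lsm7, Lsm10 and Lsm11, ranged from −0.42 for Lsm6 to 0.77 for Lsm3. Lsm2 was not tested.

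XRN1 is the cytoplasmic nuclease that degrades decapped RNA and XRN2 its nuclear counterpart. Neither gene was bright enough to be tested. Signals of Xrn1 were 32.9, 59.9 and 57.2 with HuD, 119 and 40.7 with IgG and 43.4 in the input. Those of Xrn2 were 17.9, 17.8 and 15.4 with HuD, 66.3 and 36.9 with IgG and 32.6 in the input. HuD and IgG overlapped for Xrn1, and for Xrn2 the HuD signals were below both IgG signals.

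The exosome is a barrel of subunits with associated nucleases that degrades RNA from its tail end. Of its 10 Exosc genes 6 were tested, of which none rose and 3 fell, with a median log2 difference of −0.67. Beside these few genes, 21.5% of all genes tested rose and 34% fell, with a median of −0.28. Exosc9 and Exosc8 encode subunits of the barrel and Exosc1 one of the cap proteins on top of it. Exosc9 had signals of 459, 387 and 464 with HuD, 769 and 789 with IgG and 705 in the input. IgG signals were close to the input and all HuD signals lower (log2 −0.80 ± 0.25, adjusted p = 0.0185). The fall of Exosc9 was lost under median centring (−0.64), under 75th percentile centring (−0.48), and without HuD 1 (−0.83) or HuD 3 (−0.84).

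Signals of Exosc8 were 91.0, 87.1 and 59.0 with HuD, 171 and 144 with IgG and 235 in the input. The input was the brightest and HuD the dimmest (log2 −0.78 ± 0.25, adjusted p = 0.0228). Its other tested probe set also fell (−0.86), while the call for the brightest was lost under 7 settings, among them the 3 other scalings (−0.46 to −0.63) and the removal of HuD 1 (−0.86), HuD 3 (−0.64) or IgG 1 (−0.68). Exosc1 had signals of 40.1, 85.6 and 2.40 with HuD, 116 and 189 with IgG and 151 in the input. HuD 3 was close to no signal and the HuD arrays differed widely among themselves, yet all lay below the IgG arrays (log2 −1.45 ± 0.42, adjusted p = 0.0141). A second probe set of Exosc1 had a difference of 0.01. Its fall was lost with probe sets averaged (−0.47), with no filter (adjusted over more genes), under quantile normalization (−1.21) and without IgG 2 (−1.16).

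Exosc4, another barrel subunit, was added after its values were seen because its probe sets went opposite ways. On the brightest the signals were 175, 234 and 216 with HuD, 107 and 151 with IgG and 143 in the input (log2 0.58 ± 0.26, adjusted p = 0.0755), while 2 others fell, by 0.71 and 1.32 on the log2 scale. The direction of Exosc4 thus depended on the probe set, since the brightest passed as higher under the other scalings (0.73 to 0.90) and without IgG 2 (0.78), while the average of its probe sets passed as lower (−0.48). Exosc5 and Exosc7 did not pass, with differences of −0.02 and −0.56. The genes Exosc2, Exosc3, Exosc6 and Exosc10 were not tested.

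Poly(A)-binding proteins protect the tail and link it to translation. Only 3 of the 8 genes of this kind were tested, of which 1 rose and none fell, beside 21.5% and 34% of all genes. Pabpc4, a cytoplasmic member, had signals of 171, 153 and 216 with HuD, 134 and 63.0 with IgG and 82.7 in the input. The lowest HuD signal was just above IgG 1 (log2 0.75 ± 0.29, adjusted p = 0.0484). That call was the weakest of the rises and was lost in 7 settings, including the removal of HuD 1 (0.77), HuD 2 (0.84), HuD 3 (0.63) or IgG 2 (0.34). Without IgG 1 the difference of Pabpc4 was 1.15. The other tested probe set of Pabpc4 had a difference of −0.09, and the average of its probe sets did not pass (0.33). Pabpc1, which encodes the main cytoplasmic poly(A)-binding protein, had signals of 1063, 1188 and 1079 with HuD, 1263 and 1686 with IgG and 1896 in the input. All HuD signals were below the others, yet the difference did not pass (log2 −0.39 ± 0.25, adjusted p = 0.199). With its probe sets averaged the difference was −0.59 and passed. That average takes in a second probe set too dim to be tested. Its signals were 4.62, 8.35 and 21.2 with HuD, 46.0 and 39.0 with IgG and 0.66 in the input.

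Pabpn1 encodes the nuclear poly(A)-binding protein, which controls tail length as the tail is made. Its signals of 5392, 16831 and 9688 with HuD, 6280.0 and 3832 with IgG and 1628 in the input overlapped between the pulldowns, since HuD 1 lay below IgG 1 (log2 0.96 ± 0.40, adjusted p = 0.0573). Every pulldown array, HuD or IgG, was above the input. Within the title suffix shared by HuD 1 and IgG 1 the difference was −0.22, against 1.73 within the other. Other probe sets of Pabpn1 rose by 2.04 and 1.45, and the last had a difference of −0.01. The difference of Pabpn1 against IgG passed in 6 other settings (0.56 to 1.37), among them median centring, averaged probe sets and the removal of HuD 1 or IgG 1. Pabpc1l, Pabpc2, Pabpc4l, Pabpc5 and Pabpc6 were not tested, and no signal of theirs on any array exceeded 39.6.

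Nonsense-mediated decay begins with UPF1, an RNA helicase, which UPF2 activates and the kinase SMG1 phosphorylates, after which SMG5 and SMG6 bind it. Of the 7 genes of this pathway 6 were tested, of which none rose and 1 fell, with a median log2 difference of −0.21. Over all genes tested 21.5% rose and 34% fell, with a median of −0.28. Smg5 fell, with signals of 75.4, 110.2 and 106 with HuD, 411 and 186 with IgG and 186 in the input. The HuD signals were all below the input while IgG 1 stood far above the rest (log2 −1.28 ± 0.32, adjusted p = 0.00653). Without IgG 1 the fall of Smg5 was −0.77, and with its probe sets averaged −0.74, both past the threshold.

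Upf1 had signals of 82.2, 116 and 94.1 with HuD, 48.9 and 64.2 with IgG and 42.5 in the input. HuD was above IgG on every array, at dim signals, and did not pass (log2 0.54 ± 0.24, adjusted p = 0.0745). Its level with IgG and in the input was below that for testing, so Upf1 entered the test through its brightness with HuD. The difference of Upf1 passed in 4 other settings, namely the other scalings (0.70 to 0.87) and the averaging of probe sets. Upf1 has 1 probe set, so averaging left its difference at 0.54. Only the other genes in the fit and adjustment changed. Upf2, added after its values were seen because it lay nearest the threshold, had signals of 1305, 1384 and 1599 with HuD, 844 and 1002 with IgG and 877 in the input. Its groups were also apart (log2 0.61 ± 0.25, adjusted p = 0.0515), and the difference passed in 6 of the settings tried. Smg1, Smg8 and Smg9 had differences from −0.29 for Smg9 to −0.19 for Smg8, none past the threshold. Smg6 was not tested.

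Related genes were also compared within the same array, as the log2 difference of one gene's signal to the other's, which removes what both share on an array. In 5 of the 7 pairs every HuD array lay on one side of both IgG arrays. Such separation was common, since 27.6% of all single genes tested lay wholly above IgG and 43.1% wholly below. No background share was computed for pairs. The change between the pulldowns was −0.83 for Cnot6 relative to Cnot6l, −1.34 for Lsm14a relative to Lsm14b, −1.13 for Pabpc1 relative to Pabpc4, 1.07 for Dcp1a relative to Dcp1b and −2.28 for Pan2 relative to Pan3. A two-sided exact permutation test gave p = 0.1 for each of these, adjusted to 0.14 over the 7 pairs. With 3 arrays against 2 this design cannot go below 0.1. Cnot7 relative to Cnot8 changed by 0.41 (exact permutation p = 0.5, adjusted 0.5), and Xrn1 relative to Xrn2 by 0.38 (exact permutation p = 0.3, adjusted 0.35). Pan2, Dcp1b, Xrn1 and Xrn2 were dim, which limits what their pairs can show.

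**Figure D3:**
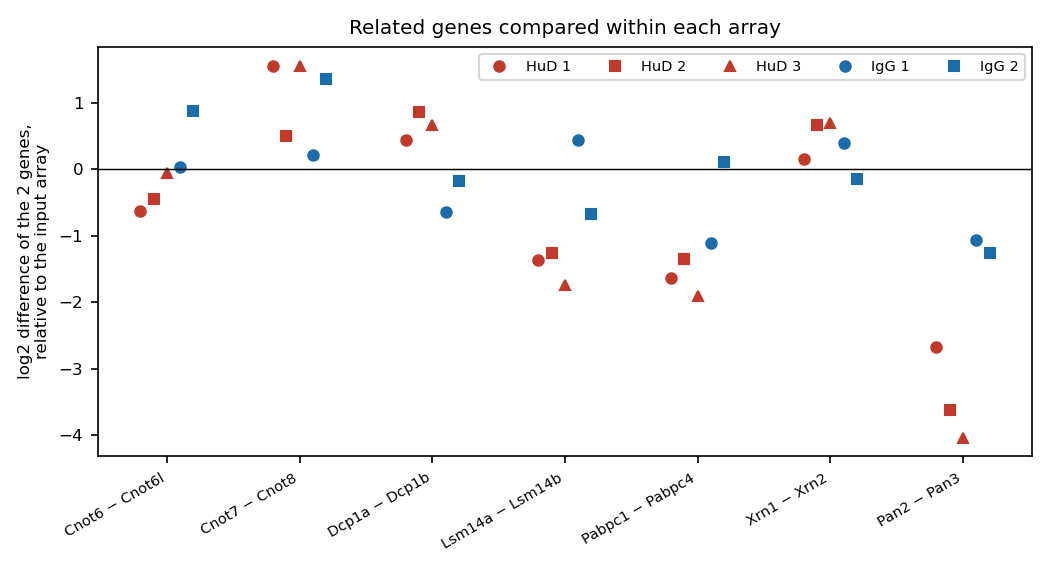
Log2 difference between the related genes of each of the 7 pairs on each array, set to 0 at the input. For Pan2 relative to Pan3 the HuD arrays lie at −2.67, −3.62 and −4.03 and the IgG arrays at −1.07 and −1.25, and for Cnot7 relative to Cnot8 the groups overlap.

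The comparison of HuD with the input asked which of the messages stood above or below their share in total RNA. The input had 1 array, which was taken to vary like the pulldown arrays. Of the 41 genes 7 rose against the input and 5 fell, where the background was 15.7% and 25.9% of all genes tested. The median log2 difference was 0.32, against −0.32 over all genes tested. In 19 genes all HuD signals were above the input and in 15 all were below it, against 32.5% and 52.7% of all genes.

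Of the 9 genes that rose against IgG, Cnot2, Cnot6, Cnot6l, Cnot7, Lsm12 and Pan3 also rose against the input. Their log2 differences were 0.98 for Cnot2, 1.05 for Cnot6, 1.43 for Cnot6l, 1.14 for Cnot7, 1.92 for Lsm12 and 2.86 for Pan3. Pabpn1 rose against the input (log2 2.53 ± 0.50, adjusted p = 0.00435) but not against IgG. Among all genes that rose against IgG 65.7% also rose against the input. The rises of Lsm12, Cnot6l, Pan3 and Pabpn1 against the input held in each setting that tested them, while that of Cnot7 was lost in 8 settings, of Cnot2 in 6 and of Cnot6 in 5. Lsm1, Lsm14b and Pabpc4 did not pass against the input, with differences of 1.12 for Lsm1, 1.52 for Lsm14b and 0.88 for Pabpc4. The comparisons share the HuD arrays, so they are not independent.

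Cnot3, Edc4, Exosc1, Exosc8 and Lsm4 fell against both, by 1.21, 1.22, 1.46, 1.28 and 1.26 against the input on the log2 scale. Among all genes that fell against IgG 64.5% also fell against the input. The fall against the input was lost in 10 settings for Exosc1, 6 for Edc4, 4 for Cnot3, 2 for Lsm4 and 1 for Exosc8. The other 5 genes that fell against IgG, Cnot10, Cnot4, Edc3, Exosc9 and Smg5, did not pass against the input. Of the 10 genes that fell against IgG, 5 had both IgG signals above the input, namely Cnot10, Cnot4, Edc3, Edc4 and Exosc9, against 31.6% of all genes that fell. Cnot10 and Edc3 were counted on slight differences. For Cnot10 IgG 2 was 166.42 against 166.39 in the input, and for Edc3 IgG 1 was 424 against 422. Of the 9 that rose, 1 had both IgG signals below the input, namely Cnot6l, against 42.5% of all genes that rose.

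These counts against the input moved with the setting. Median centring gave 6 rises and 6 falls (13.7% and 27.8% of all genes), 75th percentile centring gave 15 and 1 (21.6% and 11.4% of all genes), and quantile normalization gave 8 and 3 (16.6% and 17.4%). Leaving out 1 array gave 4 to 14 rises and 2 to 9 falls. The IgG arrays enter this comparison only through the shared variance, yet without either of them 14 rose and 9 fell. Of all genes 19.6% then rose and 33.3% fell without IgG 1, and 19.5% and 33.4% without IgG 2. Without HuD 1 the counts were 4 and 2 (10.2% and 12.8% of all genes), and without HuD 3 they were 4 and 4 (11.7% and 17.9%).

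The comparison of IgG with the input asked how far the beads alone changed the share of these messages. By limma none of the 41 genes passed in either direction, and the same was found in every alternative setting. Among all genes tested 0.022% were higher and 0% lower. At an unadjusted p under 0.05 there were 4 higher and none lower, namely Cnot4 (log2 1.39 ± 0.40), Lsm7 (1.00 ± 0.44), Pan3 (1.29 ± 0.47) and Pabpn1 (1.57 ± 0.53), with adjusted p-values of 0.637, 0.703, 0.663 and 0.639. Among all 9097 genes tested 309 were higher and 332 lower at that unadjusted threshold. In 11 genes both IgG signals were above the input and in 10 both were below, against 26.1% and 36.5% of all genes. The median difference was −0.03, and −0.07 over all genes tested. With 2 arrays against 1 the precision of this comparison is low.

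Several probe sets can read one gene, often in different stretches of its message. The 56 genes had 124 probe sets, of which 80 were tested when each stood on its own among 17473. Of these 80, 17 rose, 13 fell and 50 did not pass, and 10 of 45 genes had at least 1 probe set that rose and 11 at least 1 that fell. For the 80 probe sets the background was 17.4% rising and 28.9% falling among all probe sets tested. No background was computed for the counts of genes with at least 1 probe set past the threshold. In 19 genes at least 2 probe sets were tested, and their differences were all above 0 in 6 genes, all below 0 in 4 and of both signs in 9. No gene had probe sets that passed in opposite directions.

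The genes read alike by all their tested probe sets were Cnot6l with 4 that rose, Lsm12 and Pan3 with 2 each, and Exosc8 with 2 that fell. Cnot2 and Cnot6 had 4 tested probe sets each, all above 0, of which 2 passed for Cnot2 and 1 for Cnot6. In Cnot7, Cnot4, Cnot10 and Exosc1 the brightest probe set passed and no other did. Lsm8, Pabpn1 and Exosc4 showed the reverse, since their brightest probe set did not pass and another did. Which stretch of a message each probe set reads was not analysed here.

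**Figure D4:**
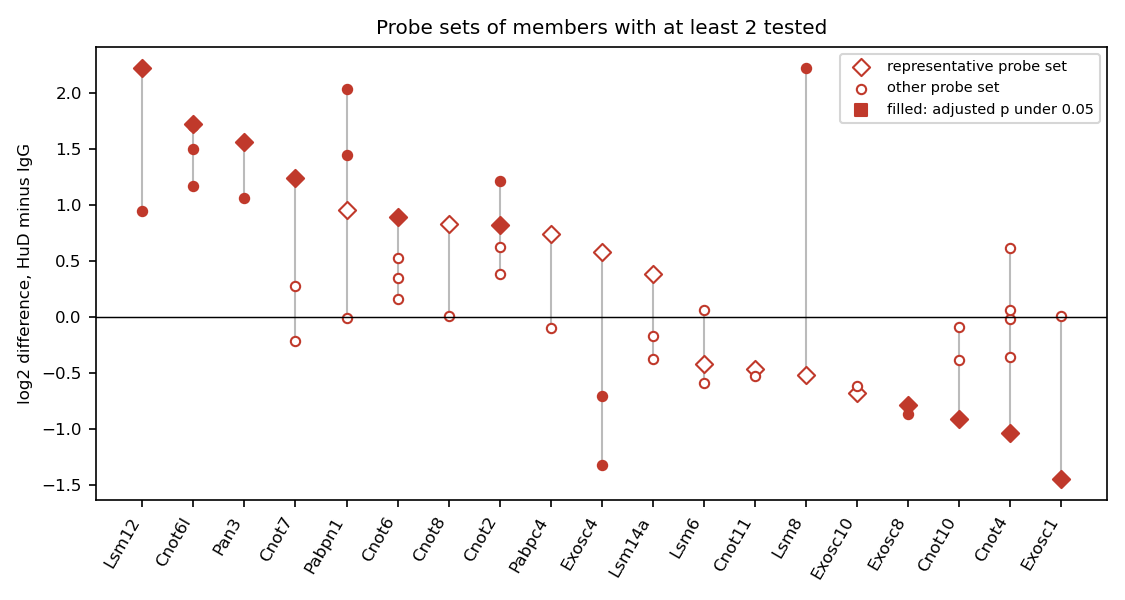
Log2 difference between HuD and IgG for every tested probe set of the 19 genes with at least 2. Diamonds are the brightest probe set of a gene, which stands for it in the comparisons, circles are the others, and filled symbols passed the threshold. The probe sets of Cnot6l lie close together between 1.17 and 1.72, with 2 of the 4 overlapping, while those of Lsm8 lie at −0.51 and 2.23.

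A further list held 49 other genes of messenger RNA decay and tail metabolism, of which 46 were on the array and 37 were tested. Of these 14 rose against IgG, 8 fell and 15 did not pass, with a median log2 difference of 0.19, beside the background of 21.5% and 34%. Against the input 11 rose and 4 fell, with a median of 0.40, beside a background of 15.7% and 25.9% and a median of −0.32 over all genes tested. Between IgG and the input none passed in limma, nor had any an unadjusted p under 0.05. At that unadjusted threshold 309 of all 9097 genes tested were higher and 332 lower. Alternatives for this list were added after seeing the data, and they gave 9 to 15 rises and 4 to 8 falls. The number of genes tested differed between some of them. A stricter filter on brightness tested 24 genes, of which 9 rose and 5 fell (32.7% and 29.2% of all genes). With no filter 46 were tested, of which 14 rose and 8 fell (9.67% and 15% of all genes). With 37 tested, 4 fell under 75th percentile centring (18.7% of all genes) or without HuD 1 (21.8%), and 5 without HuD 2 (29%). The 6 largest differences against IgG past the threshold went both ways.

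Papolg, a nuclear poly(A) polymerase, had signals of 1120.0, 1364 and 1299.9 with HuD, 169 and 318 with IgG and 362 in the input (log2 2.28 ± 0.29, adjusted p = 0.000281). Paip1, which binds PABPC1 and promotes translation, had signals of 3359.9, 2476 and 3414 with HuD, 478 and 1030.0 with IgG and 849.6 in the input (log2 2.07 ± 0.32, adjusted p = 0.000668). For both the HuD signals were far above all others. Larp4, which binds poly(A) and protects the tail, rose by 1.73 (adjusted p = 0.000932), and Patl1, the decapping activator that binds the LSM ring, by 1.29 (adjusted p = 0.00515). Signals of Patl1 were 412, 330 and 476 with HuD, 100 and 206 with IgG and 296 in the input. With HuD it did not pass against the input in limma (log2 0.40 ± 0.39, adjusted p = 0.419).

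Mtrex, the RNA helicase of the nuclear exosome, had signals of 217, 225 and 173 with HuD, 983 and 839 with IgG and 695 in the input. All HuD signals were far below the others (log2 −1.99 ± 0.26, adjusted p = 0.000289). Tut7, which adds uridines to RNA ends, had a difference of −1.29 ± 0.26 (adjusted p = 0.00233). All 6 passed against IgG in every added alternative, with smaller differences when probe sets were averaged, at 0.83 for Paip1, 0.66 for Patl1 and −0.62 for Mtrex.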

How the data were processed

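Mouse hippocampal RNA had been measured on 6 arrays, 3 of HuD pulldowns, 2 of IgG pulldowns and 1 of input. Per the labels and the file, the authors deposited an intensity for each probe set, on a linear scale and without detection calls. How the signals were extracted is not given in the labels. A mean that leaves out the lowest and highest 2% of signals came to 150.0 on each array, so the deposited signals had already been scaled. The number of arrays limits the precision.

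Of 45101 probe sets 64 were controls. A platform annotation gave 34945 of the rest a single symbol, 932 several and 9160 none, and only the first kind was used. RefSeq genes of GRCm38.p6, used for names alone, held the Entrez identifiers of 34741 and changed 0 symbols. For Cnot1, Lsm5 and Exosc6, 4 probe sets carried a second symbol and were left out. The brightest probe set over all arrays stood for each of the 18193 genes, and the 9097 genes above the median of mean log2 values (6.553) were tested.

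Means per group were fitted to log2(signal + 32) with limma 3.58.1 (R 4.3.3, eBayes with trend). There were 3 residual degrees of freedom and 8.4 from the prior. P-values were adjusted by Benjamini-Hochberg over the genes tested, with a threshold of 0.05. On this scale the change of a dim gene is understated. Errors after ± are standard errors. Groups shared a variance per gene, although across tested genes the log2 differences had an SD of 0.616 between the IgG arrays and of 0.314 to 0.457 between HuD arrays. Array numbers follow the order of deposit. The steps were tested on simulated data, and figures were drawn with matplotlib 3.10.9.

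The genes, their roles, the list of other decay genes and the tests were chosen with earlier results of these data known. Signals on every array are given for at most 16 rises and 10 falls, taken by size among called genes with no overlap between HuD and IgG, and for 7 pairs of related genes, Upf1, Pabpc1 and Pabpn1. Up to 6 genes of the further list are named by size. Cnot10, Exosc4, Lsm8, Upf2 and Dcp2 were added after their values were seen. Alternatives were other added constants, scalings, filters, handling of probe sets, no trend, blocks and leaving out each array.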

Additional observations from a re-analysis of the deposited data

How the results depend on the processing

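Of the 19 genes called between HuD and IgG, 6 kept their call in each alternative that tested them (16 to 18 alternatives), and none changed sign. The median of the tested decay genes, 0.08 for HuD against IgG, became −0.18 with no filter (all genes −0.11), −0.027 with probe sets averaged (−0.27), −0.19 with every probe set tested (−0.27) and −0.011 with the title suffix as a block (−0.28). It became 0.40 under 75th percentile centring (all genes 0.035) and 0.50 under the stricter filter (0.088). Rises and falls numbered 17 and 6 under median centring, 18 and 4 under 75th percentile centring, 15 and 5 under quantile normalization, 5 and 9 of 38 genes with probe sets averaged (16.4% and 32.9% of all genes), and 8 and 4 of 22 genes under the stricter filter (32.7% and 29.2%). Leaving out 1 array gave 7 to 12 rises, 5 to 10 falls and medians of 0.052 to 0.28. Title numbers join HuD 1 with IgG 1 and HuD 3 with IgG 2, but nothing says that they mark shared material, and their differences between the pairs had a correlation of 0.258 across genes. With this number as a replicate block, on 4 arrays, 12 rose and 10 fell, against 23.5% and 36% of all genes. The median was then 0.088 (all genes −0.27).

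Against the input, rises and falls numbered 15 and 1 under 75th percentile centring, 8 and 3 under quantile normalization, 4 and 2 with no filter (5.7% and 7.99% of all genes), 7 and 1 under the stricter filter (25.5% and 22.3%), 4 and 3 with probe sets averaged (10.2% and 22.9%) and 4 and 3 with the suffix block (12.2% and 19.1%). The median of 0.32 became 0.68 under 75th percentile centring, 0.024 with no filter, 0.69 under the stricter filter, −0.034 with probe sets averaged and 0.065 with every probe set. Leaving out 1 array gave 4 to 14 rises, 2 to 9 falls and medians of 0.22 to 0.32. For IgG against the input the median of −0.032 became 0.0066 under 75th percentile centring, 0.030 under quantile normalization, 0.017 with no filter, 0.047 under the stricter filter and 0.038 with probe sets averaged, and ranged from −0.053 to 0.15 with 1 array left out.

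Sign changes for HuD against IgG concerned genes that had not passed in the comparison as reported, although Exosc4 passed as higher under 3 scalings (0.73 to 0.90) and without IgG 2 (0.78) and as lower with probe sets averaged. With probe sets averaged the values were −0.032 for Lsm14a, −0.48 for Exosc4 and 0.86 for Lsm8, and within the suffix of HuD 1 they were −0.22 for Pabpn1 and 0.46 for Lsm8. Leaving out 1 array gave −1.34 to 0.31 for Lsm8. Against the input the values were −0.0030 for Lsm14a under median centring, 0.30 for Cnot8 under 75th percentile centring, and 0.063 for Cnot8 and −0.19 for Lsm14a under quantile normalization. With probe sets averaged they were −0.42 for Lsm14a, −0.86 for Exosc4 and 0.33 for Lsm8. With 1 array left out Cnot8 ranged from −0.42 to 0.14 and Lsm14a from −0.091 to 0.34.

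For IgG against the input, where no gene passed, median centring gave −0.064 for Cnot6, −0.064 for Cnot2, −0.088 for Pabpc4, −0.080 for Exosc9, −0.19 for Edc3 and −0.15 for Upf2. Exosc1 became 0.025 under 75th percentile centring and 0.030 under quantile normalization. Averaged probe sets gave 0.043 for Cnot6l, 0.032 for Lsm1, −0.071 for Cnot2, 0.093 for Cnot3, 0.36 for Exosc8 and 0.41 for Pabpc1, and the suffix block gave −0.015 for Edc3 and −0.038 for Upf2. With 1 array left out the range was −0.75 to 0.15 for Lsm12, −0.97 to 0.57 for Lsm14b, −1.22 to 0.29 for Lsm1, −0.61 to 0.41 for Cnot7, −0.27 to 0.53 for Pabpc4, −0.30 to 0.28 for Exosc1, −0.00018 to 1.02 for Smg5, −0.33 to 0.063 for Exosc4 and −1.17 to 0.48 for Lsm8. It was −0.050 to 0.36 for Cnot6, −0.018 to 0.33 for Cnot2 and −0.053 to 0.19 for Upf2. The cause of these changes was not tested.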
